A study of Mus musculus with 231 samples.

Results

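The miR-132 and miR-212 cluster consists of a pair of neighbouring microRNA hairpins, each of which is cut into a 5p and a 3p strand. Its 4 mature members, mmu-miR-132-3p, mmu-miR-132-5p, mmu-miR-212-3p and mmu-miR-212-5p (written without the species prefix from here on), were followed among the 1863 mature miRNAs of the training count table, the 1895 of the training CPM (counts per 1000000) table and the 1817 of the validation CPM table, and all 4 were found in each of the 3 tables. The cluster was chosen by its values in these data, since miR-212-5p was higher in the last libraries of the CM mice. The last CM libraries are therefore described without a test, for the partners of miR-212-5p as well, and tests were made on earlier libraries and on a separate cohort.

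Mature miRNAs were sequenced in PBMC (mononuclear cells of the peripheral blood) from C57BL/6 mice that can express Cbfb-MYH11 (CM), the fusion gene of inv(16) acute myeloid leukemia, and of control littermates (Ctrl). CM mice were of genotype Cbfb56M/+/Mx1-Cre, coded CHW in the labels. Both CM and Ctrl mice received 7 doses of poly(I:C) at 14 mg/kg from an age of 6 to 8 weeks, so every sample after month 0 came from a mouse exposed to this interferon inducer. The training cohort held 53 libraries of 7 CM mice (4 female, 3 male) and 76 libraries of 7 Ctrl mice (2 female, 5 male) from month 0 to month 10, and by the labels the validation cohort held 60 libraries of 10 CM mice and 42 of 6 Ctrl mice. The series description divides the validation mice between the arms in other numbers than the labels, so the arm of some validation mice is not settled, and the labels were followed here. Mx1-Cre is switched on by interferon in many tissues, so CM need not be limited to blood cells in this model. Ctrl genotypes are coded HW, CW or WT without an explanation, and it is not settled whether some of them hold a CM allele that was never switched on. Each mouse was 1 replicate in each group, and p-values measure the spread between mice, except in an alternative fitted over single libraries.

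A miRNA strand is loaded into an Argonaute protein and guides it to messenger RNAs that pair with the seed, bases 2 to 8 of the miRNA. miR-132 and miR-212 are processed from a shared primary transcript, which is a well known target of the transcription factor CREB. In neurons the cluster responds to activity and growth factors, in monocytes and macrophages miR-132 is induced by toll-like receptor signals, and in hematopoietic stem cells the cluster affects cycling and aging through Foxo3. miR-132-3p is the best studied of the strands.

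The sequences are shown because they decide which members can share targets and how well the counting can tell them apart. They are those of RefSeq on GRCm38.p6, where all 4 members and both hairpins were matched by name, and the seed is in capitals in the mature strands.
miR-132-3p: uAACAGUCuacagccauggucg
miR-212-3p: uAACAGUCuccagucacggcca
miR-132-5p: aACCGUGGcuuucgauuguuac
miR-212-5p: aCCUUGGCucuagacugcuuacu
Both 3p strands carry the seed AACAGUC, which no other of the 1679 mature mouse miRNAs in the table has. The 3p strands are identical at 17 of 22 positions counted from the 5′ end and differ by A10C, C14U, U17C, U20C and G22A (the base of miR-132-3p first). The 5p strands have a seed each, ACCGUGG and CCUUGGC, found in none of the other mature miRNAs, and are identical at 9 of 22 positions.

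The hairpins are shown to place both strands in their precursors, with the mature strands in capitals.
Mir212: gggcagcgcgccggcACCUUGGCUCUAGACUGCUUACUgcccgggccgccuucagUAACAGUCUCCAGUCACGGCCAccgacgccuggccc
Mir132: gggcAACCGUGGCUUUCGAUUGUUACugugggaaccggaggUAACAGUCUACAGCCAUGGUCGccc
Both lie on the plus strand of chromosome 11 in GRCm38.p6, Mir212 at 75173388 to 75173478 and Mir132 at 75173682 to 75173747, with 203 nucleotides between them. The build of the alignment is not settled, since the study's methods name mm9 and the submitters' processing notes GRCm38. In an mm9 annotation Mir212 is at 74986890 to 74986980 and Mir132 at 74987167 to 74987267. There both lie in an intron of the noncoding gene 1700016P03Rik (74986062 to 74991135, plus strand), between the exons 74986062 to 74986099 and 74987480 to 74987663.

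Training libraries held 1792809 to 7958411 counts (median 4437464), the 12 libraries of validation point 5 held 1645456 to 5445215 reads, and the other 90 validation libraries held 1744 to 76906 reads. The pan-hematopoietic markers miR-142a-3p and miR-142a-5p summed to 29091 to 272285 CPM over all training libraries and 6 neural markers to 17.1 to 1339 CPM (median 36.6), with no marker of either list at 0 in all libraries. The labels of mice 3334 (CM) and 3335 (Ctrl) are in doubt, because the running numbers in their library names fall into 2 separate runs that cross over at month 6, whereas those of the other 12 mice form 1 run each. The month 6 libraries of both mice also carry a G number, which the labels do not explain, unlike that of the libraries numbered next to them. Values without both mice are given beside the results, and the descriptive ones were added after seeing the data, with the scaling of all libraries kept.

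Over the 76 Ctrl libraries, month 0 included, miR-132-3p was the most abundant member with a median of 23.01 CPM (TMM-scaled, range 5.21 to 68.95). The other members, which are within 1 nucleotide of the same length, had medians of 3.89 CPM (0.744 to 13.0) for miR-212-3p, 3.05 CPM (1.01 to 11.6) for miR-132-5p and 1.85 CPM (0 to 10.4) for miR-212-5p. The ranges of these 3 members overlapped almost throughout, and 1 Ctrl library, of mouse 3349 at month 2, had no read of miR-212-5p. The highest Ctrl value of miR-132-5p, miR-212-3p and miR-212-5p came from a single library, mouse 3335 at month 6, which is one of the libraries in doubt. That library had 48.5 CPM of miR-132-3p, below the 68.95 CPM of Ctrl mouse 3342 at month 8. Over the 65 Ctrl libraries without mouse 3335 the medians were 22.7, 3.80, 3.34 and 2.00 CPM in the same order, and the highest values were 68.95, 8.62, 5.98 and 4.57 CPM.

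**Figure D1:**
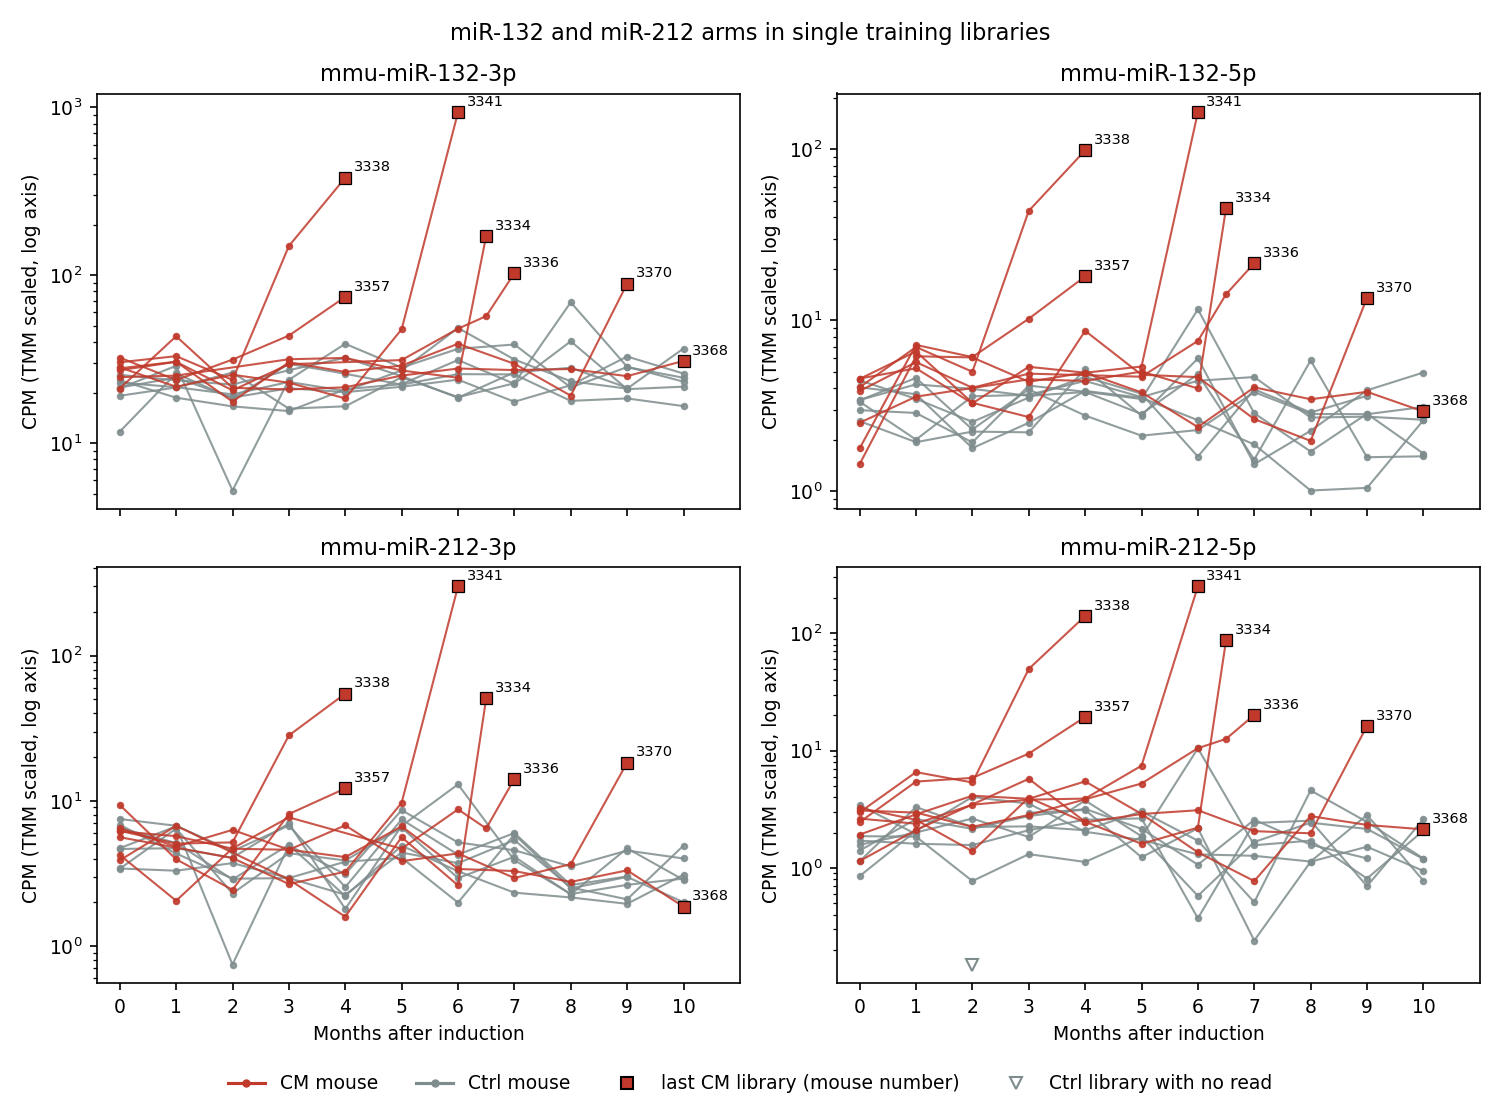
TMM-scaled CPM (log axis) of the 4 members by month for each CM and Ctrl mouse of the training cohort, with the last library of each CM mouse as a square. The last CM libraries reach 251 CPM of miR-212-5p, whereas the Ctrl libraries stay at or below 10.4 CPM.

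At months 1 to 3, before any CM mouse reached its last library, 3 of the 4 members were higher in CM than in Ctrl mice. Both 5p strands differed most, with miR-212-5p 2.70-fold and miR-132-5p 2.26-fold higher, miR-132-3p was 1.55-fold higher, and miR-212-3p did not pass the test. Values are CPM of the counts of months 1 to 3 summed for each mouse, and calls are edgeR quasi-likelihood tests over 649 miRNAs with a Benjamini-Hochberg adjusted p under 0.05. Of all miRNAs tested, 20.8% were called higher in CM mice, so 3 of 4 members has to be read against that share.

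miR-132-5p had 3.76 to 15.6 CPM (median 4.83) in the 7 CM mice and 2.06 to 3.62 CPM (median 3.04) in the 7 Ctrl mice. It was the only member whose groups did not overlap, which was the case for 5.24% of miRNAs with CM above Ctrl. Its log2 fold change was 1.18 (SE 0.30; edgeR, adjusted p = 0.00670), the 39th highest of 649.

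miR-212-5p had 2.51 to 17.2 CPM (median 3.26) in CM mice, from 24 to 243 reads per mouse, and 1.22 to 2.96 CPM (median 2.16) in Ctrl mice, from 19 to 47 reads. CM mice 3336 and 3370, at 2.65 and 2.51 CPM, lay within the Ctrl range and the other 5 lay above it. The log2 fold change was 1.43 (SE 0.42; edgeR, adjusted p = 0.0165), the 20th highest. With sex as a covariate it was 1.10 and was no longer called (edgeR, adjusted p = 0.0744), and sexes were unequally divided between the arms.

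miR-132-3p had 23.4 to 59.3 CPM (median 26.6) in CM mice and 16.2 to 23.6 CPM (median 21.1) in Ctrl mice, so the groups overlapped only between CM mouse 3341 at 23.4 CPM and Ctrl mouse 3350 at 23.6 CPM. The log2 fold change was 0.63 (SE 0.19; edgeR, adjusted p = 0.0182). The call was lost without Ctrl mouse 3335 (0.55; edgeR, adjusted p = 0.0528) and without Ctrl mouse 3346 (0.54; adjusted p = 0.0561).

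miR-212-3p, the partner with the same seed as miR-132-3p, had 3.74 to 11.1 CPM (median 4.89) in CM mice and 3.03 to 5.78 CPM (median 4.32) in Ctrl mice. Apart from mouse 3338, every CM mouse lay within the Ctrl range. Its log2 fold change was 0.42 (SE 0.23; edgeR, adjusted p = 0.177), and the median over all miRNAs was 0.03.

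CM mouse 3338 was the highest for each of the 4 members, at 59.3 CPM of miR-132-3p, 15.6 CPM of miR-132-5p, 11.1 CPM of miR-212-3p and 17.2 CPM of miR-212-5p. Without it the log2 fold changes of miR-132-3p, miR-132-5p, miR-212-3p and miR-212-5p were 0.36, 0.75, 0.12 and 0.77, and the 3 calls were kept (edgeR, adjusted p = 0.0314, 0.00803 and 0.0379 for miR-132-3p, miR-132-5p and miR-212-5p). Within single months the log2 fold change of miR-132-5p was 0.85 at month 1, 0.82 at month 2 and 1.71 at month 3, and it was called in each (edgeR, adjusted p = 0.0149, 0.0402 and 0.0360). miR-212-5p was 2.26 at month 3, which was called (edgeR, adjusted p = 0.0179), and 0.92 at month 2, which was not (adjusted p = 0.200), while miR-132-3p was called in no single month. Without mice 3334 and 3335 the 3 calls were kept, with log2 fold changes of 0.63 for miR-132-3p, 1.23 for miR-132-5p and 1.39 for miR-212-5p.

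**Figure D2:**
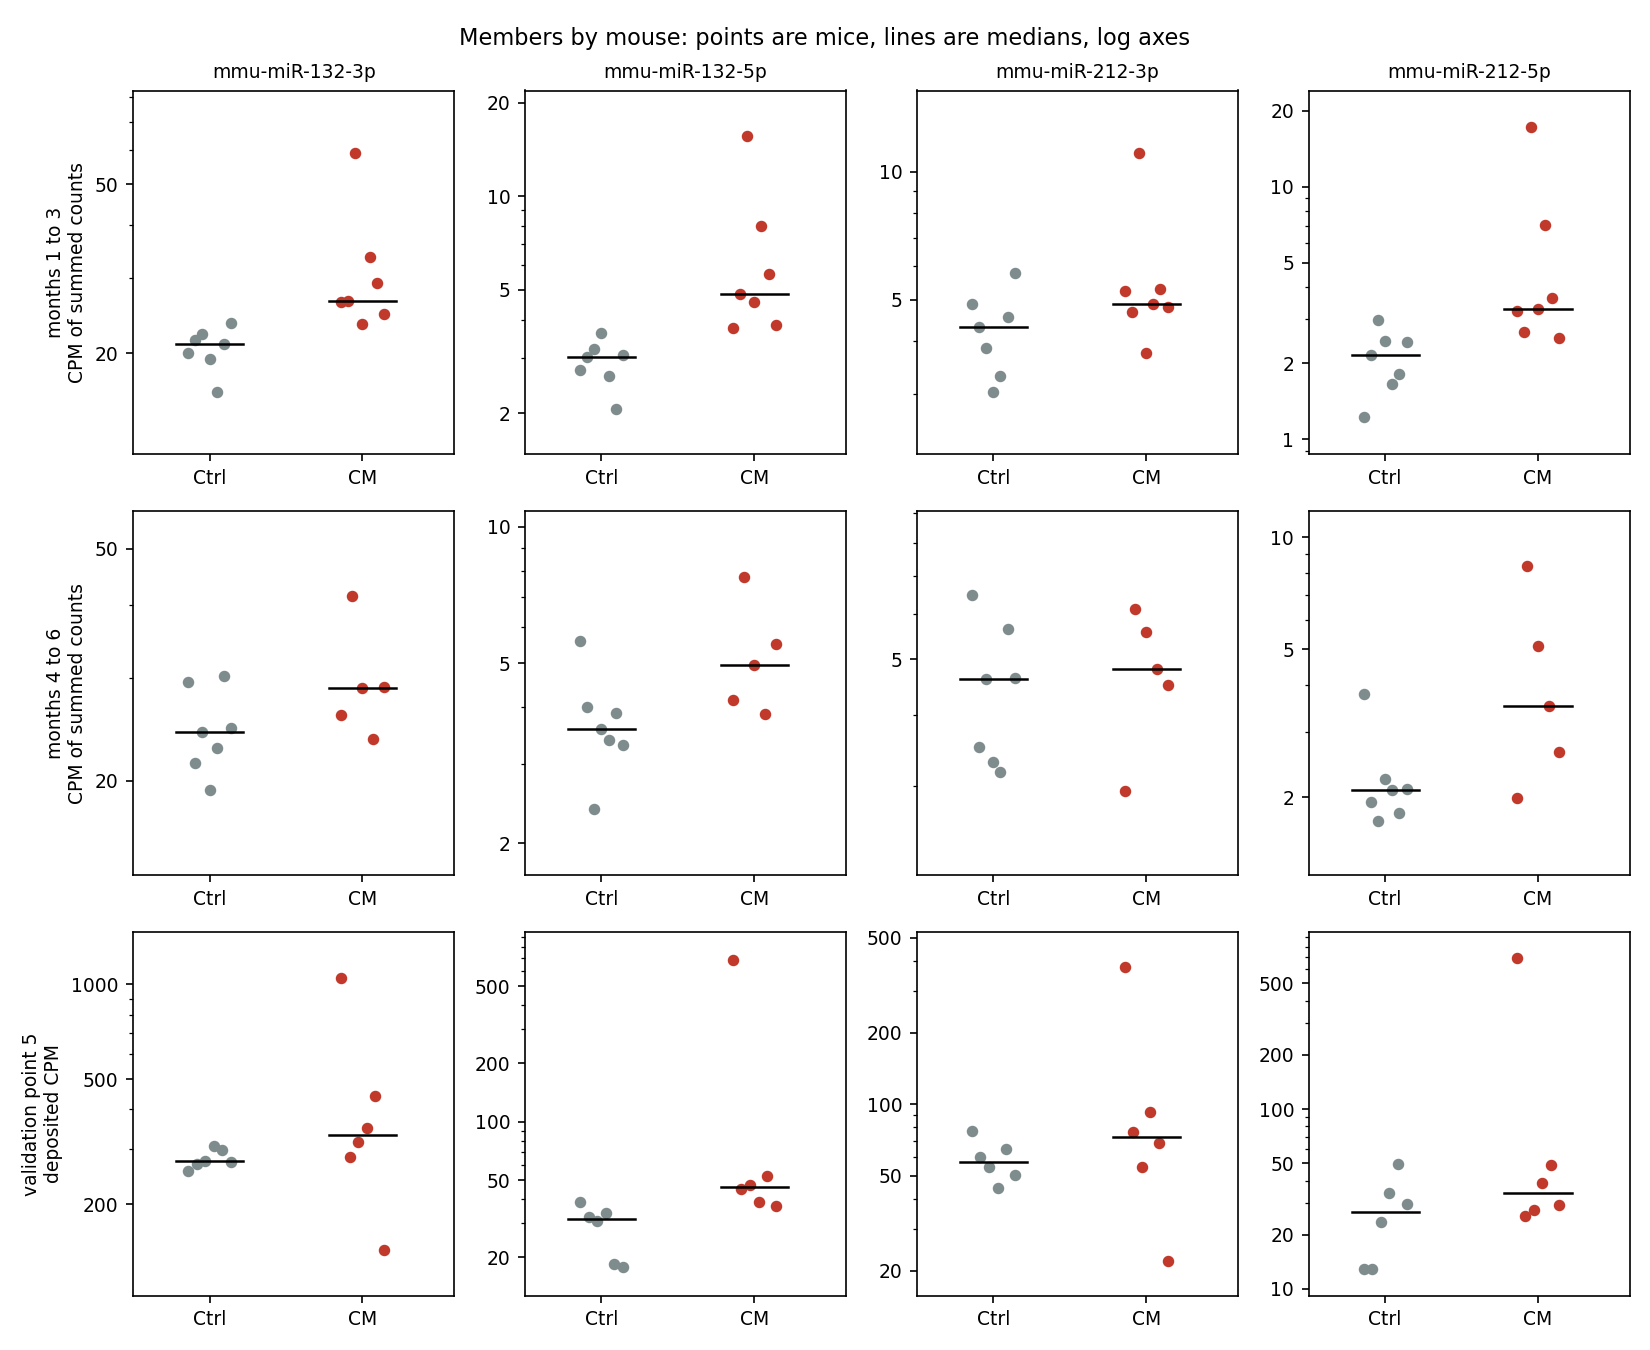
Levels of the 4 members by mouse (log axes) in CM and Ctrl mice at months 1 to 3 and months 4 to 6 (TMM-scaled CPM of summed counts) and at validation point 5 (deposited CPM), with group medians as lines. miR-132-5p separates the arms at months 1 to 3, from 3.76 CPM in CM upward against 3.62 CPM in Ctrl downward, while mouse 2684 stands alone at point 5.

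Other miRNAs moved in the same comparison. Of the toll-like receptor and CREB responsive list, which holds miRNAs induced like this cluster, 7 of 8 were tested, none was higher and 2 were lower in CM mice (median log2 fold change -0.06). These were miR-146b-5p at -0.48 and miR-147-3p at -1.30 (edgeR, adjusted p = 0.00839 and 0.00341), and the highest value was 0.47 for miR-9-5p, which was not called (adjusted p = 0.285). Of 12 hematopoietic stem and progenitor miRNAs 7 were higher and 1 lower (median 0.51), with miR-126a-5p at 2.20 (edgeR, adjusted p = 0.000164) and let-7e-5p at -0.81 (edgeR, adjusted p = 0.000412).

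Markers of blood cell types were not level between the arms. All 5 erythroid miRNAs were called higher in CM mice at months 1 to 3, from 1.21 for miR-451a to 2.08 for miR-144-5p, and their summed level was 15036 to 390509 CPM (median 57424) in 20 CM libraries and 13364 to 72527 CPM (median 35044) in 21 Ctrl libraries. Of 4 mature lymphocyte miRNAs 1 was lower, miR-150-5p at -0.43 (edgeR, adjusted p = 0.0213). Neither of the 2 granulocyte and monocyte miRNAs was called, 1 of 2 pan-hematopoietic miRNAs was lower (miR-142a-3p, -0.70), 1 of 3 endothelial and vessel wall miRNAs was higher (miR-126a-3p, 1.95, which is also in the progenitor list), and 1 of 5 neural miRNAs tested was lower (miR-219a-5p, -0.53). The part of these cell types in the levels of the cluster was not tested, and in such bulk samples more cells of a type and more RNA per cell cannot be told apart.

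At months 4 to 6, with the last CM libraries left out, none of the 4 members was called higher, against 2.12% of 661 miRNAs. This comparison held 5 CM and 7 Ctrl mice, since the series of CM mice 3338 and 3357 ended at month 4. By CM mouse (3334, 3336, 3341, 3368 and 3370) miR-212-5p was 1.99, 8.39, 5.11, 3.53 and 2.65 CPM, and in Ctrl mice it was 1.73 to 3.80 CPM (median 2.09). Mice 3336 and 3341 lay above every Ctrl mouse, and the highest Ctrl mouse was 3335. Both of these CM mice are female, and the other CM mice of this comparison (3334, 3368 and 3370) are male. The log2 fold change of miR-212-5p was 0.94 (SE 0.33; edgeR, adjusted p = 0.118).

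This value depended on the mice whose labels are in doubt. Without mice 3334 and 3335 it was 1.30 and was called (edgeR, adjusted p = 0.0324), and without only their month 6 libraries, an alternative chosen after seeing the data, it was 1.19 and was called (edgeR, adjusted p = 0.0433). Over all alternatives to this comparison its adjusted p in edgeR, DESeq2 or limma ranged from 0.0324 to 0.723, and it was called in 2 of 26.

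The other members differed less at months 4 to 6. miR-132-5p had 3.86 to 7.74 CPM in CM and 2.38 to 5.59 CPM in Ctrl mice (log2 fold change 0.48; edgeR, adjusted p = 0.220). miR-132-3p had 23.6 to 41.5 CPM and 19.3 to 30.3 CPM (0.27; edgeR, adjusted p = 0.362), and miR-212-3p had 2.93 to 6.11 CPM and 3.17 to 6.48 CPM (0.09; edgeR, adjusted p = 0.860). The groups overlapped for each member. Of the lists, 2 of 12 progenitor miRNAs (miR-126a-5p, 0.98, and miR-196b-5p, 0.76) and 1 of 5 erythroid miRNAs (miR-144-3p, 0.87) were called higher in this comparison, and no miRNA of the other 6 lists was called.

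Within CM mice the cluster showed no called change from months 1 to 3 to months 4 to 6. The log2 fold changes were 0.01 for miR-132-3p, -0.22 for miR-132-5p, -0.13 for miR-212-3p and -0.26 for miR-212-5p (edgeR, adjusted p = 0.982, 0.771, 0.814 and 0.810), and 1.21% of 661 miRNAs were called in either direction. For miR-212-5p the 7 CM mice of months 1 to 3 had 2.42 to 15.9 CPM and the 5 of months 4 to 6 had 1.96 to 8.89 CPM, in the scaling of this comparison. The 15.9 CPM belong to mouse 3338, which has no sample at months 4 to 6. Of the 5 mice measured in both periods, 4 were higher in the later one, mouse 3336 (2.50 and 8.89 CPM), 3341 (3.20 and 5.21 CPM), 3368 (3.41 and 3.67 CPM) and 3370 (2.42 and 2.74 CPM), and mouse 3334 was lower (3.23 and 1.96 CPM). With the mouse as a block, which compares each mouse with itself, the log2 fold changes were 0.26 for miR-132-3p, 0.28 for miR-132-5p, 0.079 for miR-212-3p and 0.44 for miR-212-5p, and none was called (edgeR, adjusted p = 0.484, 0.535, 0.867 and 0.535). The direction of 3 members thus depended on the block. Of the lists, 1 progenitor miRNA (miR-125a-5p, 0.78) and 1 endothelial and vessel wall miRNA (miR-143-3p, 1.29) were called higher and none lower.

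In Ctrl mice, which give the change with time after injection in the absence of induced CM, miR-132-3p alone was called higher at months 7 to 10 than at months 1 to 3. It had 21.8 to 32.8 CPM (median 26.99) late and 16.9 to 25.4 CPM (median 22.3) early in the same 7 mice, a log2 fold change of 0.31 (SE 0.11; edgeR, adjusted p = 0.0262), and 29.9% of 656 miRNAs were called higher. With the mouse as a block it was 0.32 and not called (adjusted p = 0.0637 in edgeR). The call was kept in 7 of 17 alternatives, and those that lost it included the omission of Ctrl mouse 3335, 3339, 3342, 3346 or 3350 (0.24 to 0.32). The other members had log2 fold changes of -0.11 (miR-132-5p), -0.29 (miR-212-3p) and -0.34 (miR-212-5p), with edgeR adjusted p of 0.617, 0.171 and 0.181.

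Cell type markers moved strongly over the same months in Ctrl mice. All 5 erythroid and all 3 endothelial and vessel wall miRNAs were called higher, and all 4 mature lymphocyte, both pan-hematopoietic and 1 of 2 granulocyte and monocyte miRNAs were called lower. Of the progenitor list 9 were higher and 2 lower, of the toll-like receptor and CREB responsive list 1 was higher and 4 were lower, and of 4 neural miRNAs tested 1 was higher and 1 lower. The higher one was the same miRNA in the toll-like receptor and neural lists, miR-9-5p (0.93; edgeR, adjusted p = 0.0205). Likewise, miR-126a-3p counts in both the progenitor and the endothelial and vessel wall list. The part of these markers in the change of miR-132-3p was not tested.

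In the last library of each CM mouse, which chose the cluster, all 4 members were above every Ctrl library of the same month in 6 of 7 mice. No Ctrl library is from month 6.5, so libraries of that month were set against the Ctrl libraries of month 6, among them that of mouse 3335. The exception for each member was mouse 3368, whose last library was from month 10, also the final month of the Ctrl mice. These values are a description of the libraries that chose the cluster. The number of all miRNAs above Ctrl in as many mice was not counted for them. Without mice 3334 and 3335 the last libraries were above Ctrl in 5 of 6 mice for 3 members and in 6 of 6 for miR-132-3p, since the highest Ctrl value of that miRNA at month 10 was that of mouse 3335. By mouse, the last libraries were from month 4 (3338, 3357), 6 (3341), 6.5 (3334, labelled T6p5 and read as month 6.5), 7 (3336), 9 (3370) and 10 (3368).

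miR-212-5p had 1.14 to 3.24 CPM at month 0 in the 7 CM mice, from 5 to 16 reads. In the last libraries it had 251 CPM in mouse 3341, 140 CPM in 3338, 87.1 CPM in 3334, 20.1 CPM in 3336, 19.3 CPM in 3357, 16.2 CPM in 3370 and 2.13 CPM in 3368. Mice 3341, 3338 and 3334 thus formed an upper range, 3 others an intermediate one, and mouse 3368 stayed at its month 0 level. The ratios to the mouse's own month 0 were 95.3, 47.1, 76.2, 6.52, 7.88, 5.00 and 1.11 in the same order.

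miR-132-5p went from 1.44 to 4.56 CPM at month 0 to 2.93 to 164 CPM in the last libraries, with ratios of 2.03 to 35.9 (median 10.1). miR-132-3p went from 21.1 to 32.3 CPM to 30.9 to 933 CPM, with ratios of 1.46 to 33.1 (median 3.78). miR-212-3p went from 3.89 to 9.36 CPM to 1.86 to 300 CPM, with ratios of 0.287 to 53.5 (median 3.34). In mouse 3368 miR-212-3p was lower at the end (1.86 CPM) than at month 0 (6.48 CPM) and lay below the 2.00 to 4.91 CPM of the 6 Ctrl libraries of month 10.

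The last library was more than 2-fold above month 0 in 7 of 7 mice for miR-132-5p, in 6 for miR-132-3p and miR-212-5p and in 5 for miR-212-3p. Among 457 miRNAs at 1 CPM or more in every month 0 CM library, 16 (3.5%) exceeded 2-fold in at least 6 of 7 mice, 3 cluster members included, but this contrast chose the cluster and nothing is read from the count. Ranked by the median ratio, miR-132-5p was 4th, miR-212-5p 7th, miR-132-3p 13th and miR-212-3p 20th of the 457. Without mouse 3334 the count was 16 of 465 in at least 5 of 6 mice, and the ranks were 5th, 6th, 17th and 22nd in the same order. The median ratios of the 6 mice were 7.85 for miR-132-5p, 7.20 for miR-212-5p, 3.49 for miR-132-3p and 3.16 for miR-212-3p. Of the 16 miRNAs with all 7 mice, the highest medians were those of miR-31-5p, miR-126a-3p and miR-126a-5p.

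**Figure D3:**
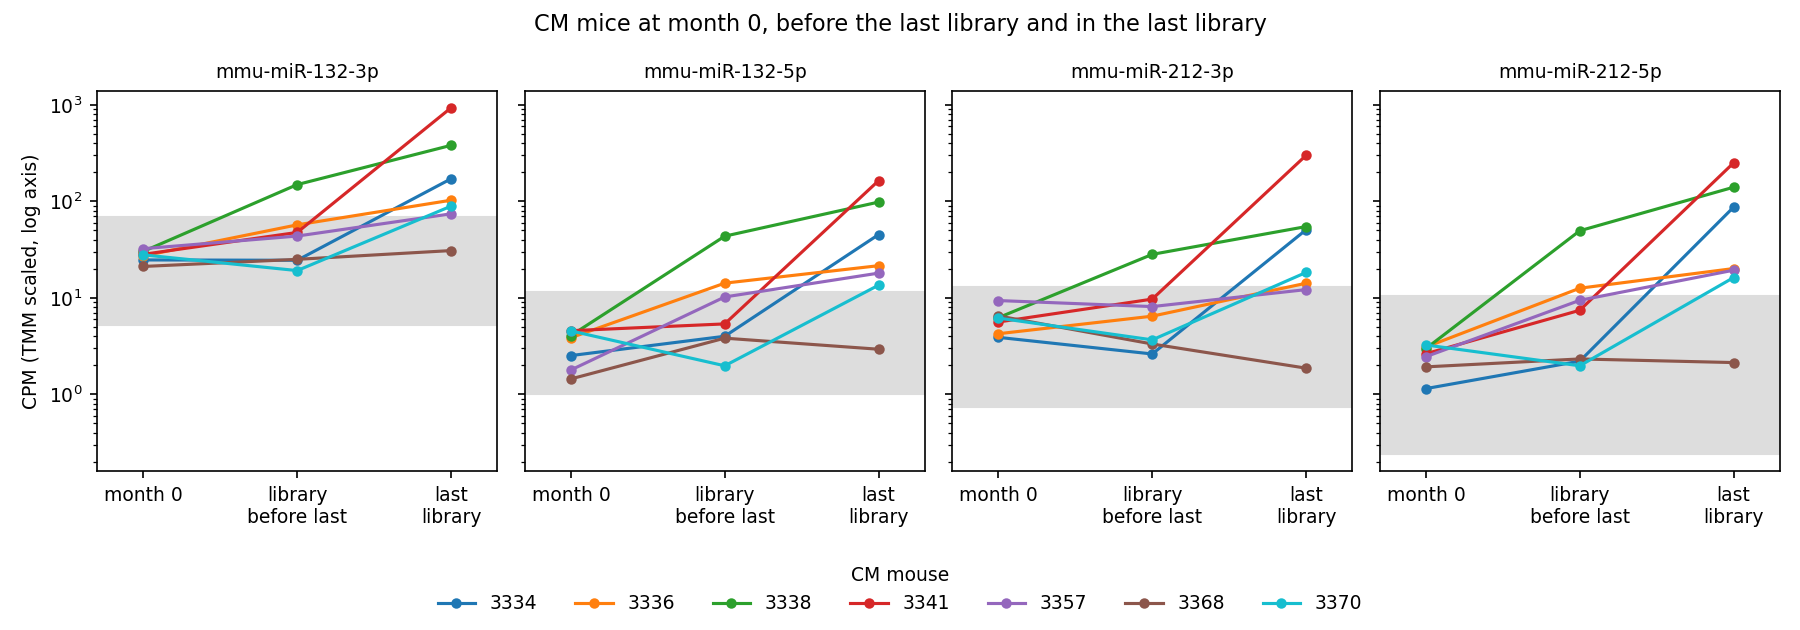
TMM-scaled CPM (log axis) of the 4 members in each CM mouse at month 0, in the library before the last and in the last library, with the range of the Ctrl libraries that had reads as a grey band. Mouse 3341 rises highest, to 933 CPM of miR-132-3p and 251 CPM of miR-212-5p, and mouse 3368 stays within the band.

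The library before the last one, not used in the choice but partly shared with the comparisons above, was above every Ctrl library of the same month in 4 of 7 mice for each member, with that of mouse 3336 (month 6.5) again set against month 6. For miR-212-5p these were mice 3338 (49.6 CPM at month 3), 3336 (12.6 CPM at month 6.5), 3357 (9.41 CPM at month 3) and 3341 (7.42 CPM at month 5). Mice 3368, 3334 and 3370 had 2.32, 2.20 and 1.97 CPM, within the Ctrl range. These are the 3 male CM mice, and the 4 above Ctrl are the 4 female ones, while only 2 Ctrl mice are female. The part of sex in this split was not tested. The same 4 mice were above the Ctrl range for miR-132-3p and miR-132-5p, and for miR-212-3p mouse 3370 took the place of mouse 3336. Mouse 3370 had 3.66 CPM of miR-212-3p on 13 reads, and the highest Ctrl library of its month had 3.53 CPM. How many of all miRNAs lay above Ctrl in as many mice was not counted. Without mice 3334 and 3335 the members were above Ctrl in 4 of 6 mice for 3 members and in 5 of 6 for miR-212-3p, where mouse 3336 at 6.45 CPM was added. Mouse 3334 therefore went from 2.20 CPM at month 6 to 87.1 CPM of miR-212-5p in the library labelled T6p5, and both libraries belong to the crossed run of numbers.

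Markers of blood cells also differed between the last libraries and month 0. The summed level of the mature lymphocyte list fell to 0.185 to 0.838 of month 0 in the 7 CM mice, and that of the granulocyte and monocyte list to 0.0392 to 0.798. The erythroid sum was 0.535 to 1.28 of month 0, the pan-hematopoietic sum 0.459 to 0.753 and the endothelial and vessel wall sum 1.30 to 5.43. The last of these lists, like the progenitor list, holds miR-126a-3p, which the study reports as raised in CM mice. Its own median log2 ratio to month 0 was 3.68 in TMM-scaled CPM, and its part in the sums was not separated. The neural sum was 0.529 to 0.993 of month 0, the progenitor sum 0.297 to 2.48 and the toll-like receptor and CREB responsive sum 0.733 to 1.46. Without mouse 3334 the granulocyte and monocyte sum was 0.290 to 0.798, the erythroid sum 0.535 to 1.04 and the progenitor sum 0.732 to 2.48 of month 0. Sums also moved with time in Ctrl libraries. From month 0 to months 7 to 10 their mature lymphocyte median fell from 58325 to 25513 CPM. The granulocyte and monocyte median fell from 10412 to 4597 CPM and the pan-hematopoietic one from 74249 to 46306 CPM. The erythroid median rose from 66089 to 120079 CPM and the endothelial and vessel wall one from 585 to 1089 CPM. The medians of the last CM libraries were 26043, 3870, 52013, 56629 and 1798 CPM in the same order. No listed marker was at 0 in all of the last libraries, and the part of cell composition in the levels of the cluster was not tested.

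The balance of the strands was also followed, with the last miR-212-5p reads that chose the cluster among its values. The share of 5p among the 5p and 3p reads of miR-212 was 45.5% to 71.9% (median 58.7%) in the last CM libraries, against 20.8% to 42.1% at month 0 in the same mice and 15.8% to 42.1% at month 0 in Ctrl mice. In mouse 3338 it was 32.4% at month 0 (11 5p and 23 3p reads, 95% exact binomial interval 17.4% to 50.5%) and 71.9% in the last library (512 5p and 200 3p reads, 68.5% to 75.2%). The 5p strand thus exceeded the 3p strand of miR-212 in 5 of 7 last libraries, which it did in no month 0 library of either arm. The share did not follow the size of the rise in every mouse. Mouse 3341, with the highest ratio to month 0, had the lowest last share (45.5%). Mouse 3368, at its month 0 level, went from 22.9% to 53.3% on 8 5p and 7 3p reads. The interval of its last share was 26.6% to 78.7%. Mice 3338 and 3334, whose ratios were the highest after that of mouse 3341, had last shares of 71.9% and 63.2%. Share and ratio both hold the miR-212-5p reads of the last library, so they are not independent. The relation of share and rise was not tested, and nothing is read from the order of the mice. Without mice 3334 and 3335 these ranges were the same and the median of the last libraries was 56.0%. This share was chosen for description after its values were seen, and intervals cover counting error only.

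Before the last libraries the difference in strand share was smaller. At months 1 to 3 the miR-212 5p share was 34.3% to 60.8% (median 40.7%) in CM and 20.0% to 44.6% (median 33.3%) in Ctrl mice, and at months 4 to 6 it was 37.0% to 57.9% and 24.3% to 40.5%. The groups overlapped in both periods, also without mice 3334 and 3335, where the Ctrl share at months 1 to 3 was 28.4% to 44.6% and the other ranges were the same. For miR-132 the 5p strand stayed the minor one, at 8.66% to 20.9% in the last libraries. At month 0 it was 5.23% to 14.0% in CM and 10.8% to 22.5% in Ctrl mice. At months 1 to 3 it was 12.4% to 20.8% in CM and 8.92% to 15.8% in Ctrl mice.

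**Figure D4:**
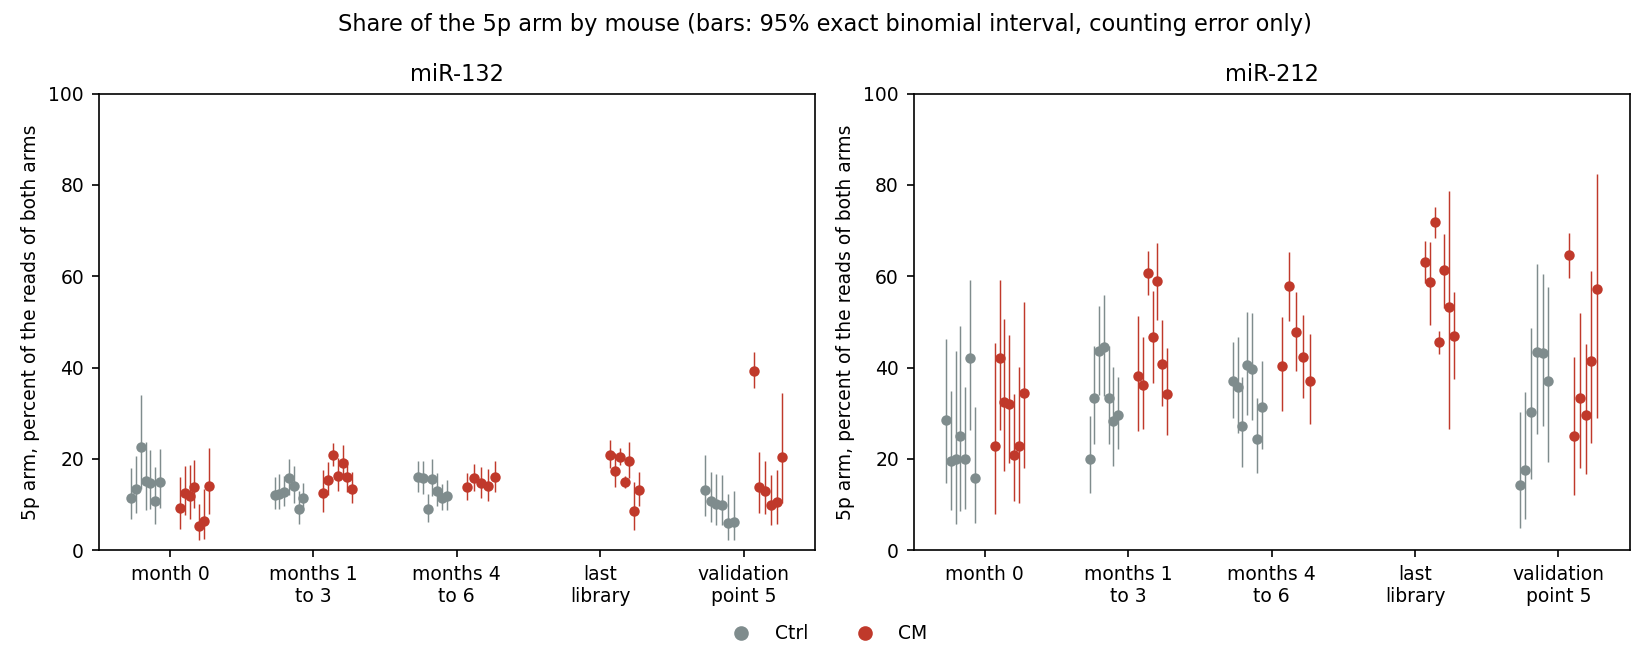
Share of 5p reads (percent) of miR-132 and miR-212 by period and arm, each point a mouse with its 95% exact binomial interval. The miR-212 share is 45.5% to 71.9% in the last CM libraries and 20.8% to 42.1% at month 0 in the same mice.

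The contribution of each hairpin to the reads of the cluster was also compared. Of all 5p reads of the cluster, miR-212 gave 42.1% to 65.8% (median 54.5%) in the last CM libraries and 31.2% to 57.9% (median 42.3%) at month 0 in CM mice. Of all 3p reads it gave 5.69% to 24.3% (median 14.1%) and 13.5% to 23.5% (median 17.0%). Both pairs of ranges overlapped. Without mouse 3334 the 5p ranges were 42.1% to 60.5% and 36.6% to 57.9%, and the 3p ranges were the same.

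Validation point 5 offered a separate cohort of 6 CM and 6 Ctrl mice. No member was called, and neither was any of 930 miRNAs (0%; limma-trend on log2(CPM + 1) of the deposited CPM, 54 at an unadjusted p under 0.05). edgeR on the reads recovered from the deposited CPM also called 0, with 70 at an unadjusted p under 0.05. Deposited columns summed to 6037693 to 16258752 at this point, not to 1000000, so these values are not on the scale of the training cohort.

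A single CM mouse, 2684, carried high levels of all 4 members at point 5. It had 1049 deposited CPM of miR-132-3p, 680 of miR-132-5p, 377 of miR-212-3p and 688 of miR-212-5p. The other 5 CM mice had 143.1 to 442, 36.7 to 52.7, 22.0 to 92.6 and 25.5 to 48.6 deposited CPM, and the 6 Ctrl mice had 255 to 306, 17.8 to 38.6, 44.5 to 77.1 and 12.9 to 49.5. The reads behind the values of mouse 2684 were 378 for miR-132-3p, 245 for miR-132-5p and 248 for miR-212-5p, and it is a male mouse with a further library at point 6.

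The log2 fold changes at point 5, on the log2(CPM + 1) scale, were 0.36 for miR-132-3p, 1.31 for miR-132-5p, 0.43 for miR-212-3p and 1.15 for miR-212-5p (limma, adjusted p = 0.955, 0.816, 0.955 and 0.870). Without mouse 2684 they were 0.05, 0.65, -0.02 and 0.43. For miR-132-5p 4 of the other 5 CM mice lay above every Ctrl mouse, on 13 to 19 reads against 6 to 15 in Ctrl mice. One of them, mouse 2700, did so by 38.8 against 38.6 deposited CPM. In TMM-scaled CPM of the recovered reads mouse 2700 had 2.49 and the highest Ctrl mouse 3.27, while mouse 2718 lay above at 5.13. How many of the 930 miRNAs showed the same was not counted. For the remaining members the other 5 CM mice overlapped the Ctrl range. The strand shares of mouse 2684 were also the highest of the 6 CM mice, with 64.6% 5p reads for miR-212 (95% exact binomial interval 59.6% to 69.4%) and 39.3% for miR-132, against up to 43.3% and 13.2% in Ctrl mice. No miRNA of the 8 lists was called at this point.

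At the other validation points the cluster could not be measured. Over the 90 libraries miR-132-3p was above 0 in 16, miR-132-5p in 10, miR-212-5p in 1 and miR-212-3p in none, with at most 3 reads in a library. In a single library of this depth, 3 reads correspond to between 39.0 and 1720 reads per 1000000, which is above the Ctrl medians of the training cohort. A single miRNA, miR-5099, made up at least 36.7% (median 95.6%) of the reads of these libraries. Their reads per 1000000 are therefore not on the scale of the training CPM. Levels of the cluster after point 5 in mouse 2684, and in the libraries labelled L, were thus not detectable at this depth and make-up of reads.

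How the members varied together was described by rank correlation over libraries. Spearman's coefficient between pairs of members was 0.45 to 0.76 over 53 CM libraries, highest for the pair of 5p strands, 0.22 to 0.64 over the 46 CM libraries before the last, and 0.10 to 0.29 over 76 Ctrl libraries. Without mice 3334 and 3335 these ranges were 0.50 to 0.77, 0.26 to 0.65 and 0.037 to 0.27. The first range holds the libraries that chose the cluster, single pairs of the others overlapped (0.25 in CM without the last libraries and 0.29 in Ctrl for miR-132-3p with miR-212-3p), and the difference between arms was not tested. These are descriptions, since libraries of a mouse are not independent and all members of a library share its depth. The median count per training library was 20 for miR-212-3p, 17 for miR-132-5p and 10 for miR-212-5p.

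The miRNAs most like each member over all training libraries, among 330 miRNAs with a mean of 10 CPM or more, were named by Spearman's rho. For miR-212-5p they were miR-1955-5p (0.73), let-7g-5p (0.68) and miR-700-3p (0.67), and for miR-132-5p they were miR-700-3p (0.67), miR-1955-5p (0.62) and miR-31-5p (0.61). For miR-132-3p they were miR-421-3p (0.63), miR-674-5p (0.60) and miR-331-5p (0.60), and for miR-212-3p miR-874-3p (0.51), miR-27b-3p (0.50) and miR-211-5p (0.49). The 5p strands therefore shared a pair of their nearest miRNAs, whereas the 3p strands shared none. Without the last CM libraries the same miRNAs had rho of 0.43 to 0.70, and without mice 3334 and 3335 of 0.47 to 0.74.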

How the data were processed

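Per the labels, total RNA of PBMC was made into small RNA libraries with adapter ligation; training libraries were prepared in randomized batches and validation libraries as they were collected. The authors trimmed reads with cutadapt, aligned them with Bowtie to mm9 (the submitters' processing notes name GRCm38, so the build is not settled) and counted mature miRNAs. The deposited training counts were whole numbers per miRNA made by the authors with mirTOP, whose settings are not given in the sources used here. The deposited CPM tables were scaled by the authors with TMM in edgeR, and since their columns summed to 505180 to 1582938 in the training and 6037693 to 16258752 at validation point 5, they were treated as a scaled signal. All deposited CPM values were whole multiples of 1 read (100% within a tolerance of 0.01 reads). Run on the reads so recovered from the training CPM, edgeR called 251, 21, 6 and 344 miRNAs in the 4 training comparisons, against 231, 18, 8 and 361 from the counts.

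Counts were summed per mouse over months 1 to 3, months 4 to 6 (6.5 included, last CM libraries left out) and months 7 to 10, scaled by TMM, filtered with filterByExpr and tested with edgeR 4.0.16 (glmQLFit, glmQLFTest; R 4.3.3). For validation point 5, miRNAs that reached 1 CPM in at least 6 libraries were fitted by limma 3.58.1 with its trend option on log2(CPM + 1). p-values were two-sided and adjusted by Benjamini-Hochberg over all miRNAs tested, with 0.05 as the threshold. Alternatives were RLE or raw scaling, DESeq2 1.42.0, other filters, limma on the deposited CPM with a pseudocount of 1 or 0.5, sex as a covariate, single months, the mouse as a block, and omission of mice. A further one was fitted over single libraries, with month and the G number of the library names as covariates and no term for the mouse. The tests were tried on simulated data. The fits with the mouse as a block pair samples of the same animal, and the correlation of the deviations from the group means within a mouse was -0.0015 to 0.15 in CM and -0.20 to 0.25 in Ctrl mice. Members, lists and markers were chosen with earlier results of these data known. The lists were toll-like receptor and CREB responsive, hematopoietic stem and progenitor, erythroid, mature lymphocyte, granulocyte and monocyte, pan-hematopoietic, endothelial and vessel wall, and neural. Named were the 4 members, the list entries with the highest and lowest change, and the 3 miRNAs most like each member.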

Additional observations from a re-analysis of the deposited data

Results flagged for a closer look

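Of 40 groups of members and samples, 12 held a sample far from the others of its group by Dixon's ratio on unlogged CPM. The nominal rate of about 1 in 20 assumes normally distributed values, so the count is not read against it. The groups are not independent, since the same libraries enter for all 4 members. They also include the last CM libraries, which chose the cluster and whose flags are a description only.

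CM mouse 3338 stood apart at months 1 to 3 for every member, at 59.3 CPM of miR-132-3p (next highest 33.7), 15.6 CPM of miR-132-5p (7.99), 11.1 CPM of miR-212-3p (5.28) and 17.2 CPM of miR-212-5p (7.04). CM mouse 2684 stood apart at validation point 5 for every member, at 1049 deposited CPM of miR-132-3p (next highest 442), 680 of miR-132-5p (52.7), 377 of miR-212-3p (92.6) and 688 of miR-212-5p (48.6). Among the last CM libraries, mouse 3341 stood apart for miR-132-3p at 933 CPM (next highest 381) and for miR-212-3p at 299.97 CPM (54.7).

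In Ctrl mice, mouse 3335 was far above the others at months 4 to 6 with 3.80 CPM of miR-212-5p (next highest 2.24), and mouse 3349 at month 0 with 3.43 CPM of miR-212-5p (1.86). Mouse 3335 is one of the mice whose library numbers cross over.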

How the results depend on the processing

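At months 1 to 3 the number of miRNAs called fell from 231 to 130, 65 and 100 in months 1, 2 and 3 alone; there miR-132-3p was 0.34, 0.38 and 1.11 and not called, miR-212-5p 0.92 at month 2 and not called, and miR-212-3p -0.17 at month 1. With sex as a covariate miR-212-5p was 1.10 and not called. At months 4 to 6 the count of 18 became 54 with DESeq2, 44 and 48 with limma on the deposited CPM (pseudocounts 1 and 0.5), 8 with sex, 51 over single libraries with month and G number, 33 without the month 6 libraries of mice 3334 and 3335 (chosen after seeing the data), and 0 in months 4, 5 and 6 alone. The fit over single libraries took the libraries of a mouse as separate replicates, so its calls do not rest on the spread between mice. miR-212-5p gained a call without mice 3334 and 3335 (1.30) and without their month 6 libraries (1.19). miR-132-3p was -0.048 at month 4, and miR-132-5p -0.13 and miR-212-3p -0.16 at month 6.

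For CM months 4 to 6 against months 1 to 3 the count of 8 became 42 with DESeq2 and 29 and 27 with limma, and miR-132-3p was -0.033 with RLE, -0.031 with DESeq2, -0.089 with raw scaling, -0.071 with no filter, -0.023 without mice 3334 and 3335 and -0.082 on recovered reads, while miR-212-3p was 0.0050 and 0.012 with limma. With the mouse as a replicate block this count was 2, miR-132-5p 0.28, miR-212-3p 0.079 and miR-212-5p 0.44, and none was called. In Ctrl mice the call of miR-132-3p was lost with RLE (0.27), DESeq2 (0.27), no filter (0.34), omission of mouse 3335 (0.31) and the block (0.32), and miR-132-5p was 0.016 with raw scaling. The block changed no other call of a member. The causes were not tested.

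Leaving out each mouse in turn, the counts were 185 to 237 at months 1 to 3, 0 to 40 at months 4 to 6 (0 without CM 3336 or without Ctrl 3339, 3340, 3342 or 3346, 6 without Ctrl 3350, 8 without CM 3334 or 3341, 9 without 3368, 30 without Ctrl 3349, 40 without 3370), 3 to 7 in the CM course (5 without 3336, 4 without 3338, 3368 or 3370, 3 without 3341), 311 to 338 in the Ctrl course and 0 to 0 at point 5. In the order miR-132-3p, miR-132-5p, miR-212-3p, miR-212-5p the log2 fold changes were 0.36 to 0.66, 0.75 to 1.23, 0.12 to 0.47 and 0.77 to 1.51 at months 1 to 3; 0.15 to 0.38, 0.33 to 0.63, 0.015 to 0.23 and 0.58 to 1.12 at months 4 to 6; -0.26 to 0.15, -0.55 to 0.066, -0.37 to 0.031 and -0.87 to 0.23 in the CM course; 0.24 to 0.40, -0.22 to -0.014, -0.38 to -0.21 and -0.45 to -0.21 in the Ctrl course; and 0.048 to 0.62, 0.65 to 1.49, -0.021 to 0.79 and 0.43 to 1.37 at point 5. The Ctrl call of miR-132-3p was lost without Ctrl 3335, 3339, 3342, 3346 or 3350 (0.24 to 0.32), and every positive value of the 5p strands and miR-212-3p in the CM course came without 3338. Of the other settings for single members, 190 kept their direction and side of the threshold, as did 193 of those leaving out a mouse. With 10 reads of miR-212-5p in a median library, depth limits its monthly values, and it was not tested at month 1 or month 6 alone.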
